A study of Mus musculus with 9 samples.

Results

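The primary granule genes of neutrophil precursors were examined as Mpo, Elane, Prtn3, Ctsg and Ms4a3, 5 genes chosen by symbol out of 19938 measured genes. All 5 were measured, each by 1 probe set that the platform annotation assigns to that symbol alone, and no filter on dim values was applied. Affymetrix MouseGene 1.0 ST arrays were hybridised with RNA of BaF3, a mouse blood cell line that needs interleukin-3 to grow. The cells had been infected with a retrovirus carrying FGFR1OP-RET, BCR-RET or BCR-ABL (the p210 form, per the series' design text) and sorted on EGFP. Each fusion had 3 arrays, numbered 1 to 3 in the titles, 9 in all. The FGFR1OP-RET and BCR-RET groups carry fusions of the receptor kinase RET, which the series title connects with chronic myelomonocytic leukaemia. The BCR-ABL group carries the kinase of chronic myeloid leukaemia. All 9 arrays thus share the line, the retroviral infection and the sort, and cells without a fusion were not analysed here, so each value below is relative to another fusion. No source used here says whether a group is a clone or a pool, or whether its arrays come from separate infections. The p-values therefore rest on array-to-array spread that may be only technical.

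Primary, or azurophil, granules are the first granules that a developing neutrophil makes, at the promyelocyte stage. Their proteins are packed early and kept until the cell kills ingested microbes, and their genes are switched off again as the cell matures, so in bone marrow high transcript levels mark precursors and not mature neutrophils. Mpo encodes myeloperoxidase, a haem enzyme that makes hypochlorous acid. Elane (neutrophil elastase), Prtn3 (proteinase 3) and Ctsg (cathepsin G) encode serine proteases, and Ms4a3 encodes a membrane protein of granulocyte and monocyte precursors that marks this lineage in mice. In promyelocytes several of these genes are known targets of the transcription factors C/EBP, PU.1 and MYB.

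The 250 bases before the annotated start of each of the 5 genes are shown, from RefSeq on GRCm38.p6, 5′ to 3′ on the gene's strand. Capitals mark the PU.1-type letters GAGGAA, or in Ms4a3 the C/EBP-type letters TTNNGNAA. Elane and Prtn3 are direct neighbours among the measured genes of chromosome 10.
Mpo, chr11:87793534-87793783, plus strand: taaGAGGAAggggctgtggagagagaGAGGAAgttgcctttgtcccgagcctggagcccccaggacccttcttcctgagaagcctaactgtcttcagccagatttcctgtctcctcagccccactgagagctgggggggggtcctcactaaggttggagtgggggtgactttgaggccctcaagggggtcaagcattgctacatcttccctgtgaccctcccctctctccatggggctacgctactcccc
Elane, chr10:79886062-79886311, plus strand: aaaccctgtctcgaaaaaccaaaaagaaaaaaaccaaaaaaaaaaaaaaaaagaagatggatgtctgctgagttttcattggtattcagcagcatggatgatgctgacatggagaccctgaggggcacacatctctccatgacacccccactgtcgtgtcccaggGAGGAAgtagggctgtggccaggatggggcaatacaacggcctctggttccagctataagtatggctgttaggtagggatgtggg
Prtn3, chr10:79879417-79879666, plus strand: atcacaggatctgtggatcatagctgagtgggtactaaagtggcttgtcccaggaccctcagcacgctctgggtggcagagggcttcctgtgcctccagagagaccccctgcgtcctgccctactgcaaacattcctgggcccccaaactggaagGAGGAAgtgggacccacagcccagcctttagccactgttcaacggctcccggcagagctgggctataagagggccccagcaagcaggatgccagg
Ctsg, chr14:56102575-56102824, minus strand: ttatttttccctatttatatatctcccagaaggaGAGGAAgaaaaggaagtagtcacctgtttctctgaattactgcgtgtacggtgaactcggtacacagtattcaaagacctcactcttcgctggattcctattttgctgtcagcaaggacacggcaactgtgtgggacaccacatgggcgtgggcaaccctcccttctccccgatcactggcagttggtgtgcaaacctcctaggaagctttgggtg
Ms4a3, chr19:11640852-11641101, minus strand: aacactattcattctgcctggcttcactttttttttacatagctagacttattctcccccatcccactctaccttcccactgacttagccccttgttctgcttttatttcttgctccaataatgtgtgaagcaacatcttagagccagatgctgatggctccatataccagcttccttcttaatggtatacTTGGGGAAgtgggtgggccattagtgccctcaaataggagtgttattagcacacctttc

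The motifs were searched on both strands. GAGGAA lay in 4 of the 5 windows, against 23.4% of the 32536 windows of the same length in the RefSeq table. Mpo held 2 matches, at bases -247 to -242 and -224 to -219 from the start, and Elane, Prtn3 and Ctsg held 1 each, beginning 85, 95 and 216 bases before it. The short MYB-type letters AACNG were in the same 4 windows and in 74.1% of all windows. TTNNGNAA was in the Ms4a3 window alone among the 5, beginning 59 bases before the start, and in 36.8% of all windows. No match of one of these motifs overlapped a match of another. The letters TATAAA were in the Ctsg window, on the strand opposite to the one shown at bases -237 to -232, and in 12.3% of all windows. These matches are letters in a window and were not tested as binding sites.

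All 5 genes had their highest mean in FGFR1OP-RET cells, an intermediate mean in BCR-RET cells and their lowest mean in BCR-ABL cells. Prtn3 and Mpo rose in FGFR1OP-RET against BCR-ABL cells, Prtn3 also rose in FGFR1OP-RET against BCR-RET cells, and no other of the 15 differences passed an adjusted p of 0.05 in the fit without a replicate block. With the replicate number as a block, Prtn3, Ctsg, Mpo and Ms4a3 also rose in BCR-RET against BCR-ABL cells. This held in the fit of all arrays and in a fit of only those groups. No source used here says what a number stands for, and the pairing was chosen from these same data. Values are log2 RMA values, on which a difference of 1 is a doubling, and they set the same probe set side by side on different arrays, not one gene against another. Tests used limma over all 19938 genes with Benjamini-Hochberg adjustment. Means carry the SD of 3 arrays after ±, and differences carry their standard error (SE). In bulk RNA, more cells that express a gene and more transcript in each cell cannot be told apart.

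Prtn3, whose product cleaves matrix proteins and is packed beside elastase, gave the clearest separation of the 3 fusions. Its log2 values on arrays 1, 2 and 3 were 11.19, 11.31 and 11.58 in FGFR1OP-RET cells, 10.60, 10.69 and 10.85 in BCR-RET cells, and 9.90, 10.05 and 10.31 in BCR-ABL cells. No array of one fusion reached the range of another. Prtn3 averaged 11.36 ± 0.20 in FGFR1OP-RET cells and 10.09 ± 0.21 in BCR-ABL cells, a log2 difference of 1.27 (SE 0.12, 2.42-fold, adjusted p = 0.00234). That call held without each of the 9 arrays in turn, with adjusted p between 0.00511 and 0.0230. Against BCR-RET cells, at 10.71 ± 0.13, Prtn3 in FGFR1OP-RET cells was higher by 0.65 (SE 0.12, 1.57-fold, adjusted p = 0.0456). This second call was close to the threshold and ended without any 1 of 8 arrays. Leaving out an FGFR1OP-RET array gave an adjusted p of 0.0511 (replicate 1), 0.123 (replicate 2) or 0.0786 (replicate 3). Leaving out a BCR-RET array gave 0.0989 (replicate 1), 0.141 (replicate 2) or 0.0858 (replicate 3), and leaving out BCR-ABL replicate 1 or 2 gave 0.0533 or 0.0948.

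Mpo had the largest FGFR1OP-RET difference of the 5 genes. Arrays 1, 2 and 3 read 10.24, 10.80 and 11.33 in FGFR1OP-RET cells, 9.42, 9.78 and 10.09 in BCR-RET cells, and 8.84, 9.29 and 9.56 in BCR-ABL cells. Every FGFR1OP-RET array was above every other array, while the BCR-RET and BCR-ABL ranges overlapped. The means were 10.79 ± 0.54 in FGFR1OP-RET cells and 9.23 ± 0.36 in BCR-ABL cells, a difference of 1.55 (SE 0.28, 2.94-fold, adjusted p = 0.0347). The call ended without any 1 of 7 arrays. These were FGFR1OP-RET replicate 2 (adjusted p = 0.151) or 3 (0.0721), BCR-RET replicate 2 (0.0744) or 3 (0.0501), and BCR-ABL replicate 1 (0.125), 2 (0.156) or 3 (0.0708). Against BCR-RET cells, at 9.76 ± 0.33, the difference was 1.02 (SE 0.28, 95% interval 0.40 to 1.65) and did not pass (adjusted p = 0.140).

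Ctsg, a chymotrypsin-like protease gene, had the widest spread of the 5 within each fusion. Its log2 values on arrays 1, 2 and 3 were 9.37, 9.94 and 10.60 in FGFR1OP-RET cells, 8.77, 9.31 and 10.07 in BCR-RET cells, and 8.12, 8.45 and 9.27 in BCR-ABL cells. The FGFR1OP-RET arrays lay above the BCR-ABL arrays and both other pairs of fusions overlapped. FGFR1OP-RET cells averaged 9.97 ± 0.61 and BCR-ABL cells 8.61 ± 0.59, and the difference of 1.36 (SE 0.40, 95% interval 0.45 to 2.26) did not pass over all genes (adjusted p = 0.250).

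Elane read 8.37, 8.74 and 9.31 on arrays 1, 2 and 3 of FGFR1OP-RET cells, 8.13, 8.36 and 8.53 of BCR-RET cells, and 8.05, 7.97 and 8.27 of BCR-ABL cells. The FGFR1OP-RET arrays cleared the BCR-ABL arrays and overlapped the BCR-RET arrays. Elane averaged 8.81 ± 0.48 in FGFR1OP-RET cells and 8.10 ± 0.16 in BCR-ABL cells, and the difference of 0.71 (SE 0.21, 95% interval 0.25 to 1.17) did not pass (adjusted p = 0.232).

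Ms4a3 read 9.44, 10.24 and 10.57 in FGFR1OP-RET cells, 9.42, 9.71 and 10.41 in BCR-RET cells, and 8.86, 9.11 and 9.71 in BCR-ABL cells. For this gene all 3 fusions overlapped, and the lowest FGFR1OP-RET array lay beside the lowest BCR-RET array. The means were 10.08 ± 0.58 in FGFR1OP-RET cells and 9.23 ± 0.44 in BCR-ABL cells, and the difference of 0.86 (SE 0.33, 95% interval 0.10 to 1.61) did not pass (adjusted p = 0.427). Against BCR-RET cells, at 9.85 ± 0.51, the difference was 0.24 with an interval of -0.51 to 0.99. The direction of that last difference rested on 1 array, since without FGFR1OP-RET replicate 3 it was -0.0079.

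**Figure D1:**
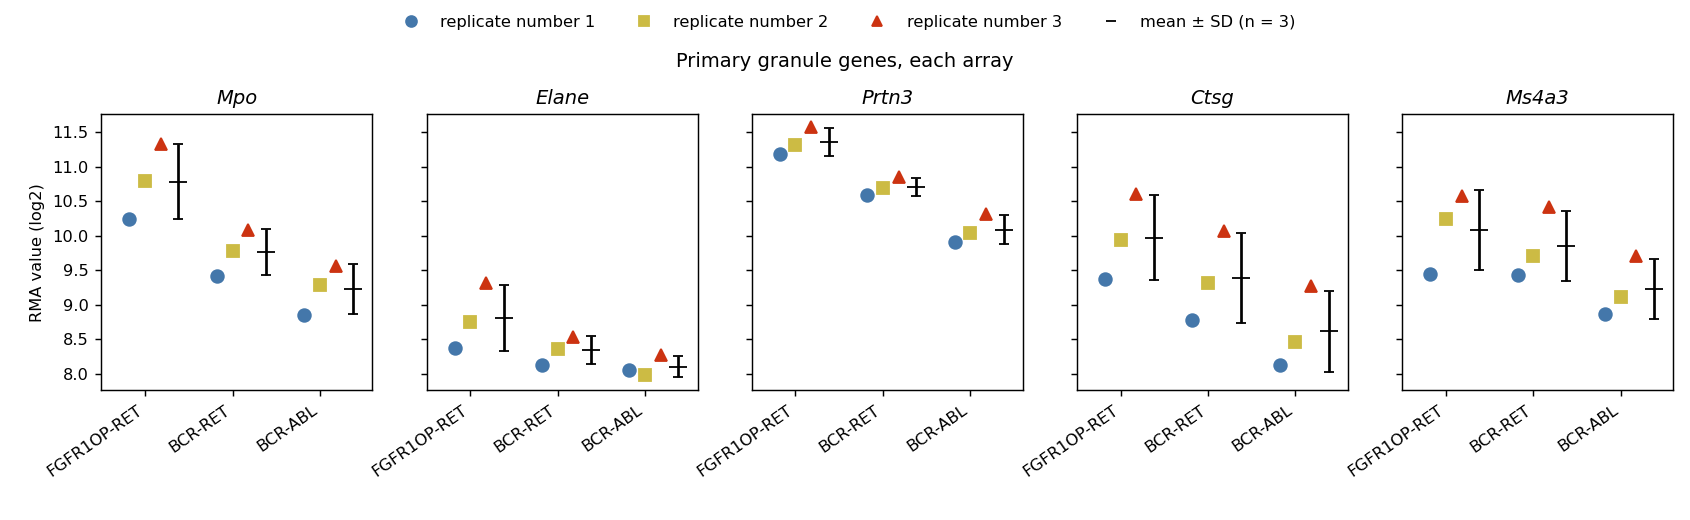
Log2 RMA value (vertical axis) of each of the 9 arrays for Mpo, Elane, Prtn3, Ctsg and Ms4a3, by fusion, with the replicate number as the symbol and the mean ± SD of 3 arrays in black. The Prtn3 arrays of the 3 fusions do not overlap, and within a fusion the number 3 array is the highest for every gene.

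In FGFR1OP-RET against BCR-ABL cells, 2 of the 5 genes rose, where 0.787% of all genes tested were called higher, and 4 of the 5 had ranges that did not overlap, where 6.94% of all genes lay wholly above. The median difference of the 5 was 1.27, against 0.00 over all genes. In FGFR1OP-RET against BCR-RET cells, 1 of the 5 rose, where 0.853% of genes were called higher, and 2 lay wholly above, as did 6.49% of all genes. In BCR-RET against BCR-ABL cells none of the 5 passed in limma without the replicate block, where 0.371% of genes were called higher. At an unadjusted p under 0.05 only Prtn3 passed in that unblocked comparison, and it alone of the 5 lay wholly above, as did 10.7% of all genes. The comparisons share arrays in pairs, so the 3 counts are not independent.

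**Figure D2:**
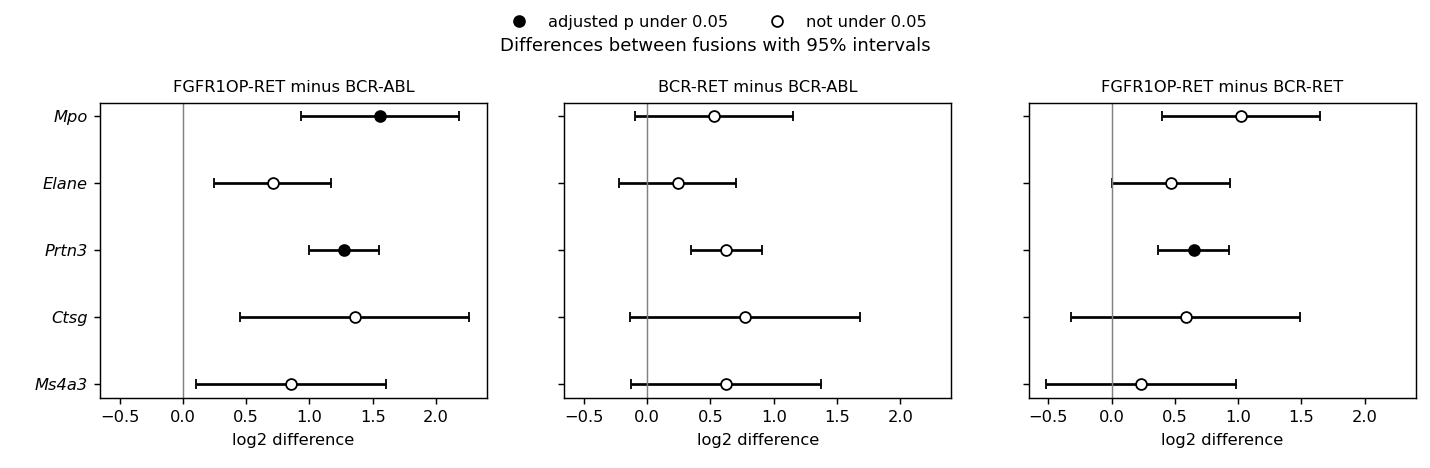
Log2 differences (horizontal axis) of the 5 genes in the 3 comparisons, with 95% intervals from limma without the replicate block, filled where the adjusted p over all genes is under 0.05. The 3 filled points are Mpo and Prtn3 in FGFR1OP-RET minus BCR-ABL and Prtn3 in FGFR1OP-RET minus BCR-RET.

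For BCR-RET against BCR-ABL cells the arrays of the same number varied together over all genes, and the fit with the replicate number as a block is therefore given beside the unblocked one. Unless stated otherwise, block values come from a fit of all arrays, which gives the FGFR1OP-RET arrays the same number terms. The FGFR1OP-RET number 2 array did not bear this out, with r of -0.128 against BCR-ABL and -0.152 against BCR-RET over all genes. The SE and adjusted p of that fit rest on these shared terms. The fit of only the BCR-RET and BCR-ABL arrays, given below, does not use the FGFR1OP-RET arrays. Comparisons with FGFR1OP-RET were not treated as paired. Prtn3 was higher in BCR-RET cells by 0.62 (SE 0.12, adjusted p = 0.0781) without the block and passed with it (SE 0.05, adjusted p = 4.43e-04). Ctsg was higher by 0.77 (SE 0.40, adjusted p = 0.498; 2.64e-04 with the block). Ms4a3 differed by 0.62 (SE 0.33, adjusted p = 0.507; 0.0134 with the block) and Mpo by 0.53 (SE 0.28, adjusted p = 0.498; 0.0104 with the block). Elane differed by 0.24 and passed in neither fit (adjusted p = 0.667; 0.337 with the block). A block fit of only the BCR-RET and BCR-ABL arrays was chosen after seeing the data. Its adjusted p was 0.00428 for Prtn3, 0.00301 for Ctsg, 0.00428 for Ms4a3, 0.00491 for Mpo and 0.128 for Elane. In either block fit 4 of the 5 genes thus rose in BCR-RET cells. In the block fit of all arrays 1.19% of all genes were called higher. Over all genes, 237 rose and 125 fell with the block, against 74 and 43 without it.

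The 5 genes also differed by the replicate number in the titles. In each of the 3 fusions the number 3 array was the highest for all 5 genes, an arrangement that 6.18% of all genes had. The number 1 array was the lowest in each fusion for Mpo, Prtn3, Ctsg and Ms4a3, as for 12.5% of all genes. Elane was the exception, with its lowest BCR-ABL value on array 2. What a number stands for is stated by no source used here.

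In a limma fit with both group and number, 4 of the 5 genes differed between numbers, where 4.45% of all genes tested passed. That fit gives a number the same effect in every fusion. Over all genes the FGFR1OP-RET number 2 array did not vary together with those of BCR-ABL or BCR-RET (r in the methods). Ctsg averaged 9.98 on the number 3 arrays and 8.76 on the number 1 arrays, a difference of 1.22 (SE 0.06, adjusted p = 1.54e-04 over both number terms), and had the lowest p of all 19938 genes. Ms4a3 was higher on number 3 than on number 1 arrays by 0.99 (SE 0.10, adjusted p = 0.00395) and Mpo by 0.82 (SE 0.08, adjusted p = 0.00353). Prtn3 was higher by 0.35 (SE 0.05, adjusted p = 0.0180), while Elane differed by 0.52 (SE 0.12) and did not pass (adjusted p = 0.0658). The calls of Ctsg, Ms4a3 and Mpo held without each array in turn. That of Prtn3 ended without any 1 of 6 arrays, namely FGFR1OP-RET replicate 1 (adjusted p = 0.0661) or 3 (0.0792), BCR-RET replicate 1 (0.104) or 3 (0.0539), and BCR-ABL replicate 1 (0.0756) or 3 (0.0674).

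For Ctsg and Ms4a3 the difference between numbers 3 and 1 was of the same order as the largest difference between fusions, 1.36 for Ctsg and 0.86 for Ms4a3. For Prtn3 it was 0.35 against 1.27. The residual SD of Ctsg was 0.62 with group alone and 0.07 with group and number, larger than that of 40.8% of genes. That of Mpo was 0.42 with group alone, larger than that of 99.8% of genes, and 0.12 with both, larger than that of 83.0%. Ms4a3 went from 0.51 with group alone to 0.16 with both, larger than that of 94.3% of genes. For Prtn3 the residual SD was 0.18 with group alone and 0.04 with group and number, larger than that of 13.5%. Elane kept more of its spread, at 0.31 with group alone and 0.20 with both, larger than that of 97.8%.

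Set within one replicate number, the order of the fusions was the same for every gene. The FGFR1OP-RET numbers were not treated as pairs with those of the other fusions (r in the methods). Matches of FGFR1OP-RET arrays by number are therefore descriptive. FGFR1OP-RET was above BCR-RET and BCR-RET above BCR-ABL on the arrays of each of the 3 numbers for all 5 genes, an order that 1.28% of all genes had. Prtn3 in FGFR1OP-RET minus BCR-ABL cells differed by 1.29, 1.27 and 1.26 within numbers 1, 2 and 3, and Ctsg by 1.25, 1.48 and 1.34. Mpo differed by 1.39, 1.51 and 1.76 and Ms4a3 by 0.58, 1.12 and 0.86. Elane varied most between numbers, with 0.32, 0.77 and 1.04.

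The RET fusions were set against each other in the same way, again without treating the FGFR1OP-RET numbers as pairs. FGFR1OP-RET minus BCR-RET was 0.82, 1.02 and 1.24 for Mpo within numbers 1, 2 and 3, and 0.60, 0.62 and 0.53 for Ctsg. It was 0.60, 0.62 and 0.73 for Prtn3 and 0.24, 0.38 and 0.79 for Elane. Ms4a3 came close to no difference, at 0.02, 0.53 and 0.16. BCR-RET minus BCR-ABL lay between 0.49 and 0.86 within every number for Mpo, Prtn3, Ctsg and Ms4a3, and between 0.07 and 0.39 for Elane.

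**Figure D3:**
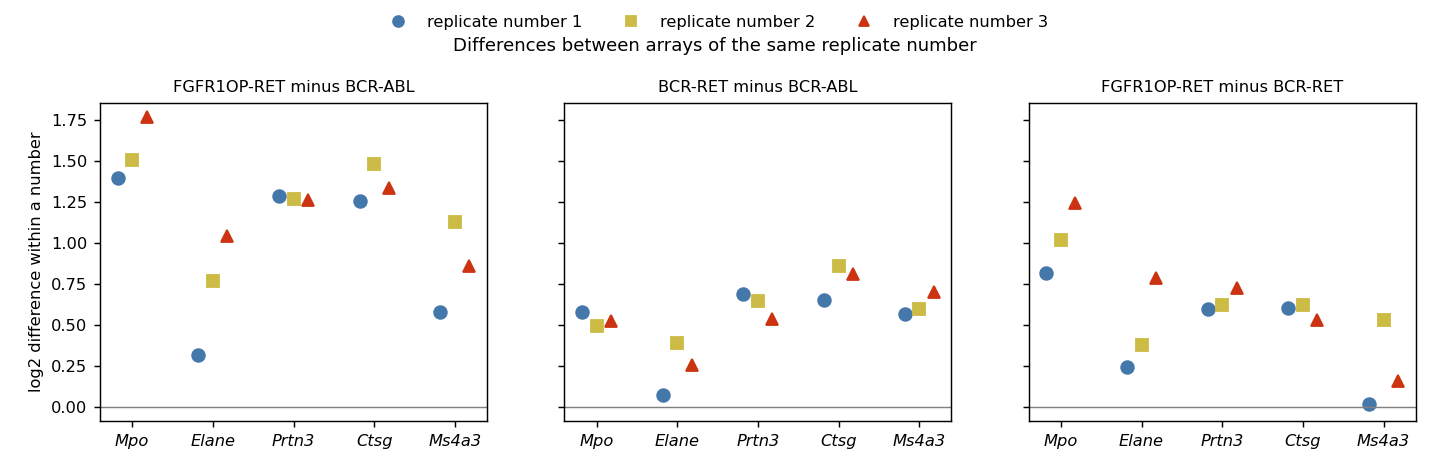
Log2 differences (vertical axis) between arrays of the same replicate number, for the 5 genes in the 3 comparisons. Only the BCR-RET and BCR-ABL numbers were treated as pairs. All 45 points lie above 0, and the lowest is Ms4a3 in FGFR1OP-RET minus BCR-RET within number 1, at 0.02. Within a number, FGFR1OP-RET minus BCR-ABL is the sum of the other differences, so its signs follow from theirs.

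Across the 9 arrays the 5 genes ran together, with Pearson r from 0.800 (Prtn3 and Ms4a3) to 0.973 (Ctsg and Ms4a3) over the 10 pairs. After the mean of each group was taken away, r lay between 0.857 (Elane and Prtn3) and 0.976 (Ctsg and Ms4a3). These correlations describe 9 arrays that share 3 groups and 3 numbers.

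The genes most like the mean of the 5 were sought among 1769 genes with an SD of at least 0.2 over the 9 arrays. The nearest were Stom (r = 0.963), which encodes the membrane protein stomatin, Anxa3 (0.962), an annexin, Stap1 (0.958), a signalling adaptor, and Tyrobp (0.957), the DAP12 adaptor of myeloid receptors. Gda (0.957), guanine deaminase, Pld4 (0.956), an endolysosomal nuclease, Ceacam1 (0.952), an adhesion molecule, and Clec12a (0.947), an inhibitory C-type lectin of myeloid cells, followed. These 8 genes were chosen for following the members over these arrays, so their differences are given here without a test. FGFR1OP-RET minus BCR-ABL lay between 0.65 for Ceacam1 and 0.99 for Stap1, and number 3 minus number 1 between 0.46 for Gda and 0.74 for Clec12a.

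The genes nearest to each member were chosen in the same way and are likewise given without a test. Nearest to Prtn3 were F630028O10Rik (r = 0.967), Trim14 (0.967) and Tnfrsf14 (0.961). Those nearest to Ms4a3 were Ifitm6 (0.975), Ctsg and Trem3 (0.970), and those nearest to Ctsg were Ms4a3, Clec12a (0.971) and Tyrobp (0.969). Milr1 (0.982), Sp100 (0.981) and Olr1 (0.981) were nearest to Mpo, and Stom (0.963), B3gnt2 (0.958) and Stap1 (0.956) to Elane.

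Genes beside the members on the chromosome gave a further comparison. Of the 16 nearest measured neighbours, 2 on each side of every member, 1 rose in FGFR1OP-RET against BCR-ABL cells. This was Plppr3, the measured gene before Prtn3 on chromosome 10, which encodes a phospholipid phosphatase related protein. Its values were 8.88, 8.93 and 8.88 in FGFR1OP-RET cells, 8.65, 8.62 and 8.62 in BCR-RET cells, and 8.35, 8.46 and 8.44 in BCR-ABL cells. The 3 fusions did not overlap in Plppr3, which rose by 0.48 against BCR-ABL cells (adjusted p = 0.00239) and by 0.26 against BCR-RET cells (adjusted p = 0.0361) and did not pass between numbers (adjusted p = 0.868). Med16, on the other side of Elane, differed by 0.20 and did not pass (adjusted p = 0.493).

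Mcpt8, a basophil protease gene next to Ctsg on chromosome 14, followed the numbers. It was higher on number 3 than on number 1 arrays by 1.46 (SE 0.12, adjusted p = 0.00229; 0.0229 at most without any 1 array) and passed between no fusions. Mir142, near Mpo on chromosome 11, was higher by 0.76 (adjusted p = 0.0148), and no other of the 16 neighbours passed between numbers.

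Regulators of the granule programme were read from a list of 18 transcription factor genes of granulocyte precursors, all measured. In FGFR1OP-RET against BCR-ABL cells 2 rose and none fell, and the list median was 0.06 against 0.00 over all genes. Cebpe, which drives the step from promyelocyte to later stages, read 10.87, 11.01 and 11.15 in FGFR1OP-RET cells, 10.21, 10.31 and 10.32 in BCR-RET cells, and 10.09, 10.12 and 10.34 in BCR-ABL cells. All FGFR1OP-RET arrays were above all others, and Cebpe rose by 0.83 (SE 0.09, adjusted p = 0.00307) against BCR-ABL cells and by 0.73 (adjusted p = 0.00591) against BCR-RET cells. Both calls held without each array in turn. Runx1 rose by 0.66 (adjusted p = 0.0320) in FGFR1OP-RET and by 0.78 (adjusted p = 0.0197) in BCR-RET against BCR-ABL cells, and these calls ended without any 1 of 6 and of 4 arrays, with the highest adjusted p of 0.168 and 0.123 both without BCR-ABL replicate 2.

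The other calls in this list lay between the RET fusions, where 3 genes rose and none fell. Beside Cebpe these were Id2 (0.46, adjusted p = 0.0420) and Myb (0.32, adjusted p = 0.0439), and leaving out any 1 of 8 arrays ended each, with adjusted p up to 0.158 and 0.131, both without BCR-RET replicate 3. Spi1, the gene of PU.1, averaged 11.99 ± 0.29 in FGFR1OP-RET cells, 11.40 ± 0.09 in BCR-RET cells and 11.59 ± 0.12 in BCR-ABL cells and passed in no comparison. Cebpa averaged 7.80, 7.84 and 7.82 and Gfi1 7.80, 7.80 and 7.81 in the same order of fusions, with no call. Cebpa read exactly 7.80849 on BCR-ABL arrays 2 and 3, BCR-RET arrays 1 and 2 and FGFR1OP-RET array 1. Such repeats limit what its flat means can show. Between replicate numbers Runx1 was higher on number 3 than on number 1 arrays by 0.31, and Rara fell by 0.52 and Id1 fell by 0.39. Runx1 and Id1 ended without any 1 of 7 arrays and Rara without BCR-RET replicate 1 (adjusted p = 0.171, 0.176 and 0.0810, each without BCR-RET replicate 1).

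Other genes of granule content and activation were read from 2 further lists. Of 12 measured genes of other granule proteins and lysosomal enzymes, none passed in limma in any comparison of fusions, and the list medians were 0.07, 0.09 and 0.05 for FGFR1OP-RET minus BCR-ABL, BCR-RET minus BCR-ABL and FGFR1OP-RET minus BCR-RET, against 0.00, 0.03 and -0.03 over all genes. The list means were 9.85 to 10.02 in FGFR1OP-RET, 9.88 to 9.97 in BCR-RET and 9.63 to 9.75 in BCR-ABL arrays, so the BCR-ABL arrays lay below all others. Lyz2, a lysozyme gene, averaged 11.31 in FGFR1OP-RET, 11.23 in BCR-RET and 10.29 in BCR-ABL cells without a call. Prss57, a serine protease of the same granules, averaged 8.65 ± 0.35, 8.58 ± 0.20 and 8.05 ± 0.14 in FGFR1OP-RET, BCR-RET and BCR-ABL cells without a call. In the list of 10 measured protease activators and inhibitors, Cst7, an inhibitor of cathepsins, fell by 0.85 in FGFR1OP-RET against BCR-RET cells (adjusted p = 0.0108). That call ended without any 1 of 3 arrays, with adjusted p up to 0.0642 without FGFR1OP-RET replicate 2. With the replicate block Cst7 rose in BCR-RET against BCR-ABL cells by 0.58 (adjusted p = 0.00628; 0.0838 without the block). Ctsc, the protease that activates elastase, proteinase 3 and cathepsin G, averaged 12.62 ± 0.16, 12.90 ± 0.17 and 12.89 ± 0.11 in the same order of fusions and was not called. Between numbers, the activator and inhibitor list had 9 of 10 differences above 0 and a median of 0.25, against -0.01 over all genes. Gla (0.53) and Cd63 (0.38) of the other granule genes and Serpinb6a (0.27) of the protease inhibitors were higher on number 3 than on number 1 arrays, and these calls ended without any 1 of 4, 4 and 8 arrays, with adjusted p up to 0.112, 0.160 and 0.208, each without BCR-RET replicate 1.

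A list of haem synthesis, which supplies the cofactor of myeloperoxidase, also held other peroxidases and haem enzymes such as Epx, Lpo, Ptgs2, Cat and Hmox1. It had 1 of 12 measured genes higher in FGFR1OP-RET against BCR-ABL cells and none lower. The gene was Alas1, which encodes the first enzyme of the pathway. It read 11.46, 11.44 and 11.58 in FGFR1OP-RET cells, 10.82, 10.86 and 10.86 in BCR-RET cells, and 10.79, 10.55 and 10.73 in BCR-ABL cells. FGFR1OP-RET cells stood apart, with Alas1 up by 0.80 (SE 0.07, adjusted p = 0.00143) against BCR-ABL cells and by 0.64 (adjusted p = 0.00300) against BCR-RET cells, and both calls held without each array in turn. With the replicate block Hmox1, the haem-degrading enzyme, rose in BCR-RET against BCR-ABL cells (0.62, adjusted p = 0.00303).

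Relatives of the members were read from a list each for Ms4a3 and Ctsg. None of 15 other measured MS4A family genes passed between fusions or between numbers. Of these 15, 14 had a mean log2 value below the median of all genes (8.19), where a change may be harder to see. Among 15 measured granzymes and mast cell proteases related to Ctsg, Gzmc fell by 1.11 (adjusted p = 7.09e-04), Gzmg fell by 0.42 (adjusted p = 0.00760) and Gzmb fell by 0.35 (adjusted p = 0.0181) in FGFR1OP-RET against BCR-ABL cells, and none rose. Between numbers the 1 gene of that list past the threshold was Mcpt8, described above. Gzmb ended without any 1 of 5 arrays (adjusted p = 0.111 without BCR-ABL replicate 2). Gzmc also fell by 0.86 in BCR-RET against BCR-ABL cells (adjusted p = 0.00217), and with the replicate block Mcpt2 rose in the same comparison (0.44, adjusted p = 0.0357). Mcpt2 and Gzmg were dim, with 9-array means of 5.32 and 6.09, above only 5.5% and 11.4% of genes.

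Markers of other cell types were read beside the granule genes. Later neutrophil genes had 2 of 15 measured members higher in FGFR1OP-RET against BCR-ABL cells, Mmp8 (1.33, adjusted p = 0.0249) and S100a9 (0.96, adjusted p = 0.0278), each ended without any 1 of 5 arrays, with adjusted p up to 0.115 without BCR-ABL replicate 3 and 0.146 without FGFR1OP-RET replicate 2. The list means lay between 9.39 and 9.86 in FGFR1OP-RET, 9.31 and 9.62 in BCR-RET and 9.05 and 9.11 in BCR-ABL arrays. None of the 15 passed between numbers. Mmp9 rose in FGFR1OP-RET against BCR-RET cells (1.44, adjusted p = 0.00591), and with the replicate block Lcn2 (0.87, adjusted p = 0.0272) and Retnlg (0.58, adjusted p = 0.0113) rose in BCR-RET against BCR-ABL cells. Retnlg was dim, with a 9-array mean of 6.41, above only 15.3% of genes. Monocyte and macrophage markers had 3 of 13 higher in FGFR1OP-RET against BCR-ABL cells, with list means of 8.10 to 8.34, against 7.89 to 7.91 in BCR-ABL arrays, and none between numbers. These were Cd14 (1.06, adjusted p = 0.0146), Mpeg1 (1.01, adjusted p = 0.0106) and Fcgr1 (0.57, adjusted p = 0.0351), which ended without any 1 of 3, 2 and 7 arrays, with adjusted p up to 0.0971 without BCR-ABL replicate 2, and 0.0597 and 0.147 without BCR-ABL replicate 3. Cd14 (1.21, adjusted p = 0.00775) and Mpeg1 (1.16, adjusted p = 0.00591) also rose in FGFR1OP-RET against BCR-RET cells. Cybb rose in BCR-RET against BCR-ABL cells (0.99, adjusted p = 0.0176; 0.116 without BCR-ABL replicate 2) and fell by 0.73 in FGFR1OP-RET against BCR-RET cells (adjusted p = 0.0485; 0.179 without BCR-RET replicate 3). The part of later neutrophil or monocytic cells in the granule values was not tested.

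Between replicate numbers, a few markers of basophils and eosinophils differed, and most did not pass. Mcpt8 and Cpa3 (0.91, adjusted p = 0.0228) were the 2 of 11 mast cell and basophil markers that passed, both higher on number 3 than on number 1 arrays. The median of the 11 differences was 0.00 with 5 above 0, Gata2 differed by -0.25, and the list means were 7.48 to 7.50 on number 3 arrays and 7.31 to 7.32 on number 1 arrays. Prg2 (0.51, adjusted p = 0.00334) and Epx (0.54, adjusted p = 0.0336) were the 2 of 7 eosinophil markers, with a median difference of 0.08 and list means of 7.91 to 8.08 on number 3 and 7.68 to 7.94 on number 1 arrays. Clec12a (0.74, adjusted p = 0.00437) and Fcgr3 (0.53, adjusted p = 0.0350) were the 2 of 12 receptors and surface genes of granulocyte precursors, and Nkg7 (1.03, adjusted p = 0.00437) was the 1 of 10 T and NK markers. Clec12a is tested here as part of its list. It was also among the genes nearest to the members over these arrays, so its calls are not separate from theirs. Cpa3 ended without any 1 of 6 arrays and Epx of 4 (adjusted p up to 0.167 and 0.193, without BCR-RET replicate 1), Fcgr3 of 7 (up to 0.152 without BCR-RET replicate 3), and Clec12a and Nkg7 without BCR-RET replicate 1 (0.0515 for both). Between fusions no mast cell, basophil, eosinophil or T and NK marker passed without the block, and with it Prg2 (1.10), Nkg7 (1.10) and the receptor gene Clec12a (0.37) rose in BCR-RET against BCR-ABL cells. In the precursor receptor list Fcgr3 rose in FGFR1OP-RET against BCR-RET cells (0.99, adjusted p = 0.0499; 0.167 without FGFR1OP-RET replicate 2). The part of these cell types in the granule values was not tested.

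**Figure D4:**
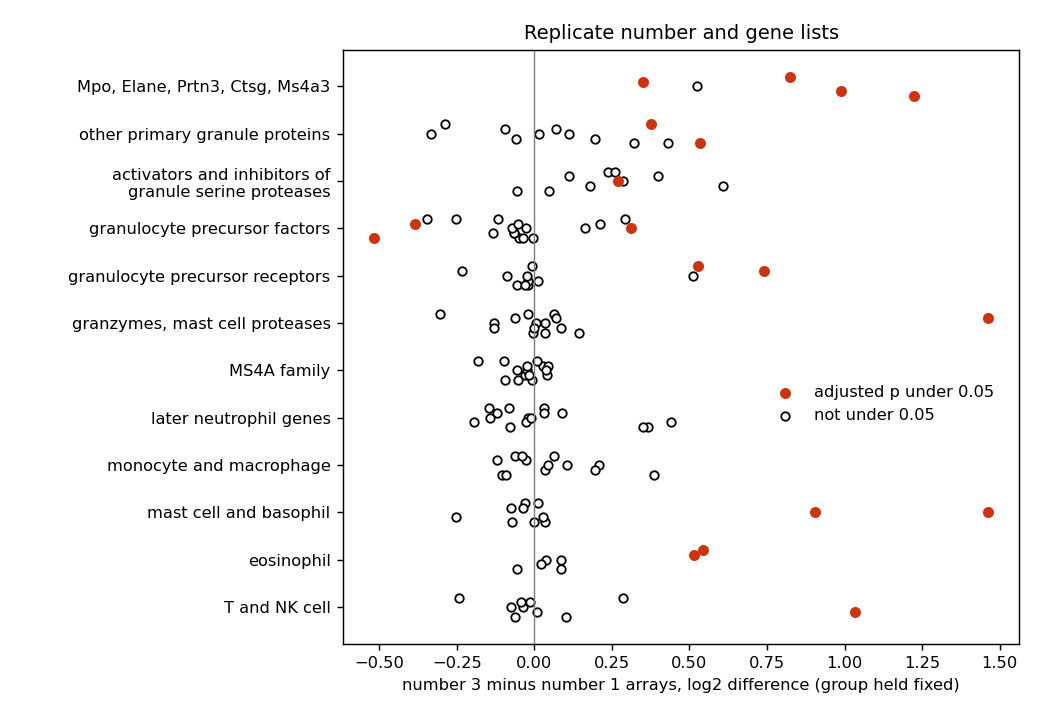
Difference between the number 3 and number 1 arrays (horizontal axis, log2, with the fusion held fixed) for each measured gene of 12 lists, filled where the adjusted p over both number terms is under 0.05. The 5 granule genes lie between 0.35 and 1.22, while the MS4A family and the later neutrophil and monocyte lists have no filled point. Of the 15 MS4A genes, 14 had a mean below the median of all genes.

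The labelled line was read from its markers as far as the arrays allow. The interleukin-3 receptor gene Il3ra averaged 10.52, 10.39 and 10.33 and the leukocyte gene Ptprc 11.84, 11.48 and 11.68 in FGFR1OP-RET, BCR-RET and BCR-ABL cells. Ptprc was higher by 0.36 in FGFR1OP-RET than in BCR-RET cells (adjusted p = 0.0182; 0.0773 without BCR-RET replicate 3). Csf2rb, the shared beta chain of the interleukin-3 receptor, rose in FGFR1OP-RET (0.69, adjusted p = 0.00649) and in BCR-RET (0.72, adjusted p = 0.00819) against BCR-ABL cells. Csf2rb2, its mouse relative, rose by 0.56 (adjusted p = 0.0236; 0.131 without BCR-ABL replicate 2) and 0.90 (adjusted p = 0.00278) in the same comparisons, and with the replicate block Itgb7 fell by 0.32 in BCR-RET against BCR-ABL cells (adjusted p = 0.0458). Of 8 measured erythroid and megakaryocyte markers, Gata1 rose by 0.45 in FGFR1OP-RET (adjusted p = 0.0423; 0.204 without BCR-ABL replicate 2) and by 0.75 in BCR-RET against BCR-ABL cells (adjusted p = 0.00513), and Klf1 rose by 0.47 in BCR-RET against BCR-ABL cells (adjusted p = 0.0440; 0.209 without BCR-ABL replicate 2). None of 9 fibroblast markers passed. B lymphoid markers, listed because the labelled line is a pro-B type line, had no call in any comparison or between numbers (11 measured). Of these 11, 10 had a 9-array mean log2 value below the median of all genes (8.19), as none of the 5 granule genes did. Elane was near that median, and in BCR-ABL cells its mean of 8.10 was above only 49.1% of genes. Detection calls were not used here, so no marker can be called absent. Correlations between arrays over all probe sets ran from 0.993 to 0.996 within fusions and 0.989 to 0.996 between fusions, and array medians from 8.01 to 8.04. No pair of arrays was identical. None of the 5 granule genes had a value repeated exactly on another array, whereas 30.1% of all genes had 1 value on at least 3 arrays.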

How the data were processed

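The deposited values are log2 gene-level RMA estimates, which the authors computed with Expression Console, per the labels. No source used here names a software version or genome build. RMA quantile normalization makes the arrays' distributions alike, so a shift of most transcripts would not be seen, and the few arrays limit precision. Of 35557 probe sets, 21789 had 1 gene symbol. The brightest per gene was kept, leaving 19938 genes. Groups and replicate numbers came from the titles. The main fit was limma 3.58.1 in R 4.3.3 (lmFit, eBayes) with a mean for each group, all 9 arrays sharing 1 spread and Benjamini-Hochberg adjustment over all genes at 0.05. A further fit had group and replicate number, with an F test of the number terms. Both were tested on simulated data.

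Deviations from the group means correlated across all genes between arrays of the same number. For BCR-RET and BCR-ABL, r was 0.617, 0.155 and 0.367 for numbers 1, 2 and 3, all above the limit of 0.1, so these numbers were treated as pairs on the evidence of the data. For FGFR1OP-RET, number 2 gave r of -0.128 with BCR-ABL and -0.152 with BCR-RET, so those were not.

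The members, gene lists and tests were chosen with earlier results of these data known. All measured members were named. From each list, genes past the threshold were named, at most 4 per comparison. Like genes were the 8 nearest to the members' mean and the 3 nearest to each member by Pearson r, and neighbours were the 2 nearest measured genes on each side in RefSeq's GRCm38.p6 gene table, used for names and order.

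Alternatives were median centring, repeated quantile normalization, a filter on means under 6, the mean of a gene's probe sets, all probe sets, trend and robust eBayes, array weights, fits of 2 groups, the replicate block and leaving out each array.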

Additional observations from a re-analysis of the deposited data

How the results depend on the processing

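Array number limits precision, and levels near background could not be marked because detection calls were not used. The order of the fusions kept its sign for all 5 genes under every alternative run, except Ms4a3 in FGFR1OP-RET minus BCR-RET, which was -0.0079 (adjusted p = 0.995) without FGFR1OP-RET replicate 3. Causes of the changes below were not tested.

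With all probe sets tested, genes past the threshold numbered 121 for FGFR1OP-RET minus BCR-ABL (203 in the report's fit), 73 for BCR-RET minus BCR-ABL (117), 101 for FGFR1OP-RET minus BCR-RET (265) and 11 for the replicate number (887). Calls lost there were Mpo in FGFR1OP-RET minus BCR-ABL (1.55, adjusted p = 0.109), Prtn3 in FGFR1OP-RET minus BCR-RET (0.65, 0.103), and between numbers Mpo (0.82, 0.0682), Prtn3 (0.35, 0.102) and Ms4a3 (0.99, 0.0804). Fits of only 2 groups gave counts of 94, 56 and 34 for the 3 comparisons and lost the same Mpo (1.55, 0.109) and Prtn3 (0.65, 0.114) calls. BCR-RET minus BCR-ABL gave 293 genes with array weights, and Prtn3 passed there (0.64, 0.0124) and with quantile normalization (0.64, 0.0309).

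With the replicate block, BCR-RET minus BCR-ABL gave 362 genes, and Mpo (0.53), Prtn3 (0.62), Ctsg (0.77) and Ms4a3 (0.62) passed. They also passed with the block in a fit of only those groups, chosen after seeing the data, which gave 377 genes. For FGFR1OP-RET the numbers were not treated as pairs (r in the methods). There the block gave 576 genes against BCR-ABL, with Elane (0.71), Ctsg (1.36) and Ms4a3 (0.86) added, and 1135 against BCR-RET, with Mpo (1.02), Elane (0.47) and Ctsg (0.58) added. Fitted on only the groups compared, the block added Ctsg (1.36) and Ms4a3 (0.86) against BCR-ABL, and gave 414 genes and added Mpo (1.02) and Ctsg (0.58) against BCR-RET.

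Leaving out 1 array gave 70 to 185 genes for FGFR1OP-RET minus BCR-ABL, 28 to 114 for BCR-RET minus BCR-ABL, 86 to 194 for FGFR1OP-RET minus BCR-RET and 43 (without BCR-RET replicate 1) to 1501 (without FGFR1OP-RET replicate 2) for the replicate number. Mpo in FGFR1OP-RET minus BCR-ABL ranged from 1.29 to 1.83, Prtn3 in FGFR1OP-RET minus BCR-RET from 0.54 to 0.73, Ms4a3 there from -0.0079 to 0.56, and Prtn3 between numbers from 0.33 to 0.39.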
